A study of Mus musculus with 3 samples.

Results

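The genes described here are 39 named members of the interferon response, chosen as a list of gene names and found by the gene name of each probe on the array design, older names included. They matched 40 genes and 62 probes of the 27608 genes and 41174 probes on the design, because the name Ifi27 belongs to 2 current genes: Ifi27, which the array lists as D12Ertd647e, and Ifi27l2a, which it lists as Ifi27. The list falls into a type I group of 29 genes (46 probes), a GTPase group of 9 genes (12 probes) that stands for type II interferon, and the transcription factors Irf1 and Irf8 (4 probes). Some members carry other names on the array: Gbp2b is listed as Gbp1, Gbp3 as Gbp4, Gbp4 as Mpa2, Irgm1 as Irgm, Tgtp1 as Tgtp, Irf9 as Isgf3g and Dhx58 as D11Lgp2e. Tgtp1 has a near-identical copy, Tgtp2, and its probes may read both.

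Type I interferons, the alpha and beta family, bind a receptor found on nearly all cells and activate a complex that holds STAT2 and IRF9 and binds the interferon-stimulated response element (ISRE) in front of antiviral genes such as Ifit1, Isg15, Mx1 and the Oas family. Type II interferon, interferon gamma, comes mainly from T cells and NK cells and acts through the gamma-activated site (GAS) in DNA and through Irf1. The guanylate-binding proteins (Gbp) and the immunity-related GTPases (Igtp, Iigp1, Irgm1, Tgtp1, Ifi47) are its best known targets, and they attack microbes inside membrane vacuoles; many genes of both groups answer to both interferons.

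RNA came from tumours of mice transgenic (Tg) for AID, activation-induced cytidine deaminase, an enzyme that deaminates cytosine in DNA, and RNA of 3 organs was hybridised on 1 array each, in 2 colours. Liver tumour and stomach tumour were each paired with nontumour tissue of the same AID Tg mouse, and a lung tumour of an AID Tg mouse was paired with normal lung of a Wt mouse, so in lung tumour and transgene cannot be told apart. The promoter that drives the transgene and the ages of the mice are not given in the sources used here. Scanner values were used for liver and stomach. For lung only the authors' lists of differing spots were used, which start at 2-fold and give the scanner software's processed signals, so a member outside these lists has no lung value here and may differ by less, be dim or be unmeasured.

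Each array was 1 sample with no replicate and no dye swap, so no difference here has a replicate check and no p-value is given. The labels place tumour RNA in Cy3, but the authors' table calls spots brighter in Cy5 "up" in the tumour. Ratios are therefore given as log2(Cy5/Cy3), with positive values called Cy5-high and negative values Cy3-high. The headings of that table make Cy5 the likely tumour channel, and every sign turns if the dye labels hold. Different probes of a gene differed by a pooled SD of 0.18 in liver and 0.26 in stomach. Errors given with a gene are the SD between its probes or, with 1 probe, the log2 error of the scanner software, and they cover the measurement alone. The scanner error belongs to the scanner software's own ratio. Liver and stomach ratios here come from a separate normalization unless named otherwise. Because the tissues are mixtures, fewer cells of a type and less RNA per cell cannot be told apart. Hepatocyte markers had a summed normalized signal of 263655 in Cy3 and 178548 in Cy5 on the liver array. Gastric gland markers summed to 487490 and 142415 on the stomach array. No measured gene of either list was below background. Of 9 hepatocyte genes 7, all but Alb and Fgb, were measured in liver, and 2 of those 7 were above 0 (52.9% of all genes). Of 9 gastric gland genes measured in stomach 2 were above 0 (50.2% of all genes). Marker sums of both arrays were taken without a filter on background or saturation.

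RefSeq (build GRCm38.p6) gave promoter windows, from 250 bases before to 50 bases after a start site, for 30 of the 40 genes (37 windows). The letters GAAANNGAAA, the core of an ISRE, were searched on both strands with overlapping matches counted, and stood in 18 of the 37 windows (48.65%) against 3.443% of all 32851 windows. TTCNNNGAA, the palindromic letters of a GAS, stood in 10 of the 37 (27.03%) against 8.298% of all windows. In the GTPase group 6 of 8 windows held the ISRE letters and 2 the GAS letters, in the type I group 12 and 6 of 25, and in the windows of Irf1 and Irf8 none and 2 of 4. A match is a description of the letters, not a shown binding site. The windows printed next belong to members on which the values turn, each 300 bases on the plus strand, with the matches in capitals. Igtp, an immunity-related GTPase (chr11:58199306-58199605), holds a GAS match and, right after it, an ISRE match, which start 45 and 34 bases before the start site.
Igtp: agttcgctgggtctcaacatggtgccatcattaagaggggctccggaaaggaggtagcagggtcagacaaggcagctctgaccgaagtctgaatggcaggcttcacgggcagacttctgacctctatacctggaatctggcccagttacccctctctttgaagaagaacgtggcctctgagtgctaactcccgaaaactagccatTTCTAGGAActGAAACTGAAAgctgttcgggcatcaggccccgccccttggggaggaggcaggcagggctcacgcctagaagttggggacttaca
Gbp2, a guanylate-binding protein (chr3:142620413-142620712), has an ISRE match in the reverse direction, TTTCACTTTC.
Gbp2: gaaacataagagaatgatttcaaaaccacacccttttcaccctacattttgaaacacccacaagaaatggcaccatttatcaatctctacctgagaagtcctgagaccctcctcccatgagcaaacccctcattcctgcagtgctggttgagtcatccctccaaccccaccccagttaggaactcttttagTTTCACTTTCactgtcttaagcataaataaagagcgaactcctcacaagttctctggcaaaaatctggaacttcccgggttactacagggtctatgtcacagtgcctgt
Irf1 (chr11:53769764-53770063) has the GAS match TTCCCCGAA and no ISRE match.
Irf1: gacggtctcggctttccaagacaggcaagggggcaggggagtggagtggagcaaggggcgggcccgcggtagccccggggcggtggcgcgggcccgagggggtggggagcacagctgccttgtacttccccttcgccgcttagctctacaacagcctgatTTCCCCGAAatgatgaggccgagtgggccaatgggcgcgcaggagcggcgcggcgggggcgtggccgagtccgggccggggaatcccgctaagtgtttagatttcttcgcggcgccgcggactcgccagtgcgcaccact
Ifit3, a type I member (chr19:34583279-34583578), holds a pair of ISRE matches.
Ifit3: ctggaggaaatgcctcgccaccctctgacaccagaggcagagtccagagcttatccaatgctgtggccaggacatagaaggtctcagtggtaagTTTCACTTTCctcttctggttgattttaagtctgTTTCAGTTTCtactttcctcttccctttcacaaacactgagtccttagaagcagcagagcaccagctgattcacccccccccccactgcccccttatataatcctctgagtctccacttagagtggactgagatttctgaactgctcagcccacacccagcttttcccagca
Oasl1, whose values differ from those of most type I members (chr5:114922990-114923289), holds neither set of letters and is printed without capitals.
Oasl1: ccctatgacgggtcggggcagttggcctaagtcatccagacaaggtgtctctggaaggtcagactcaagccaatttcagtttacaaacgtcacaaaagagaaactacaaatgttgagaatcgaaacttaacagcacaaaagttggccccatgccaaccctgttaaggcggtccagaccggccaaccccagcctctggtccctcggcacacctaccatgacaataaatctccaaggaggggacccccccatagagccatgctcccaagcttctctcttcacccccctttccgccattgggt

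The GTPase group lay on the Cy5 side in liver and in stomach, with small ratios. On the liver array all 9 genes were above 0, with a median log2 ratio of 0.30 (range 0.06 to 0.65), against a median of 0.01 over the 25546 genes measured, of which 52.9% were above 0. None reached 2-fold (background 0.153% Cy5-high and 0.0705% Cy3-high), and 1, Igtp, passed 1.5-fold (background 0.853% Cy5-high). Median centring without loess brought Iigp1 (0.90) and Ifi47 (0.72) past 1.5-fold as well, and the scanner ratio Gbp3 (0.59). On the stomach array 8 of 9 were above 0, with a median of 0.45 (range -0.30 to 1.09) against 0.00 over 25267 genes, 50.2% of them above 0. There 1 of 9, Gbp2, was at least 2-fold Cy5-high (background 0.875%) and 3 passed 1.5-fold (background 3.23%). Median centring brought Gbp3 and Ifi47 past 2-fold too, and the scanner ratio Ifi47. Over the 7 processing settings tried, 7 to 9 of the 9 genes stayed above 0 in liver and 7 to 8 in stomach, and the medians ran from 0.29 to 0.42 and from 0.45 to 0.94.

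**Figure D1:**
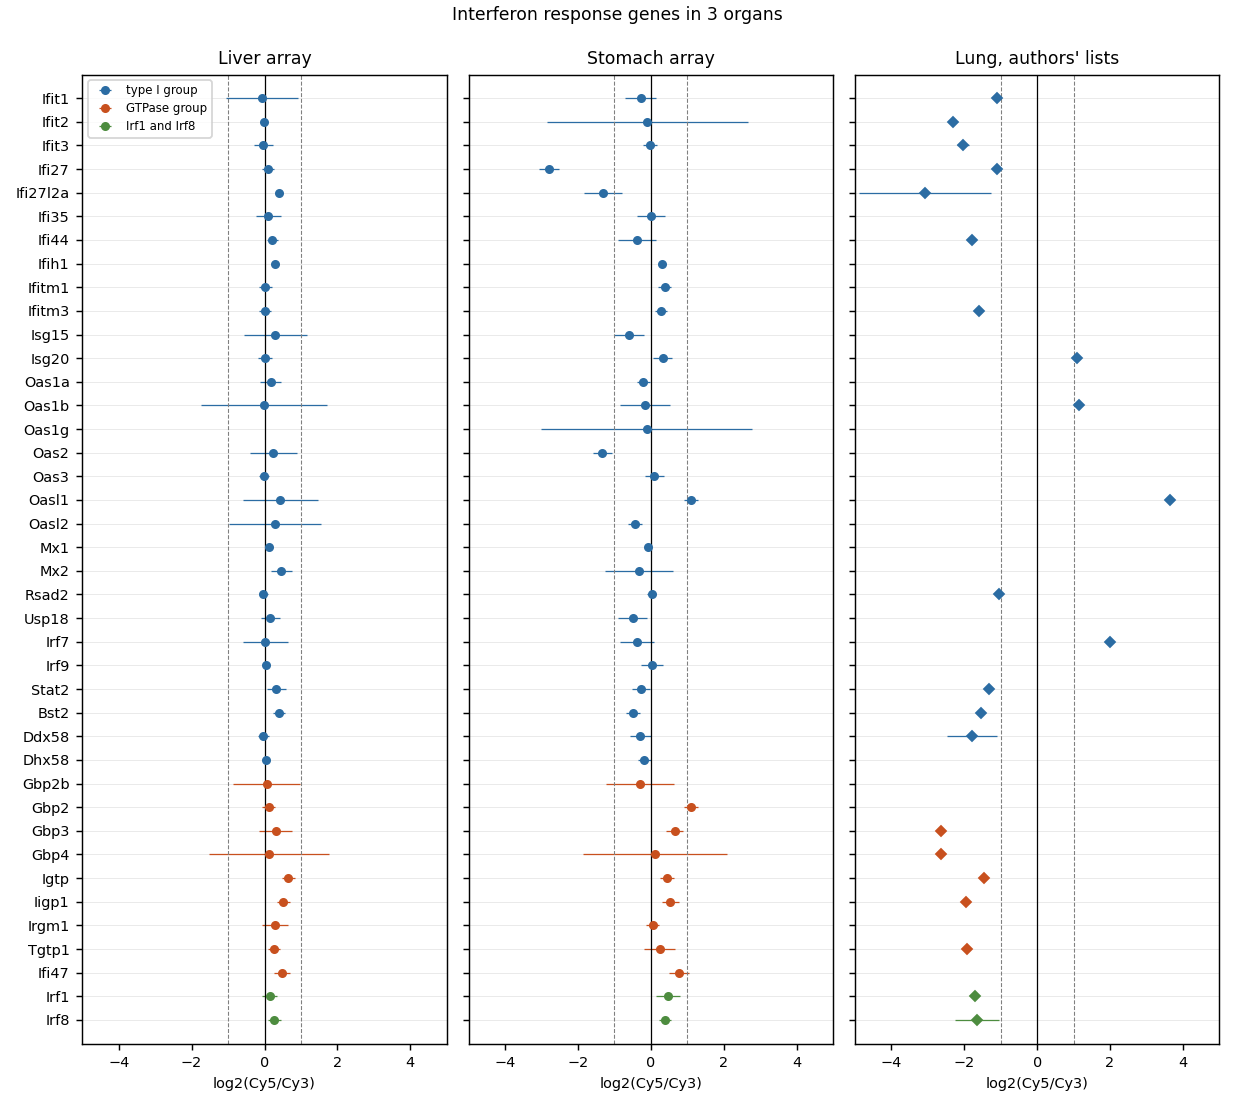
Each row is 1 of the 40 genes and each panel 1 organ, with log2(Cy5/Cy3) on the x axis; circles are array values, diamonds the means of the spots in the authors' lung lists, bars the SD between probes or, with 1 probe on the arrays, the scanner error, and dashed lines 2-fold. GTPase genes sit right of 0 in liver (9 of 9) and mostly in stomach (8 of 9), and the 5 that are listed in lung sit left of -1.

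Igtp, one of the regulatory immunity-related GTPases, had a normalized liver signal of 733 in Cy3 and 1150 in Cy5, a log2 ratio of 0.65 (scanner error 0.18, 1 probe). Its stomach signals were 518 and 706, a ratio of 0.45 (scanner error 0.19). Both ratios exceeded their measurement error. In lung the authors' deposited table gives it 9830 in Cy3 and 3540 in Cy5, a log2 ratio of -1.47 or 2.77-fold, on the other side of 0.

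Iigp1, a GTPase that disrupts the vacuole of intracellular parasites, had liver signals of 3182 and 4557 in Cy3 and Cy5 (0.52, scanner error 0.17) and stomach signals of 272 and 395 (0.54, scanner error 0.23). The deposited table of the authors lists lung signals of 8210 and 2130, a ratio of -1.95. As with Igtp, liver and stomach lay on one side and lung on the other. Irgm1, a regulator of the other GTPases and of autophagy, had a mean of 0.30 in liver (SD 0.36 between 3 probes) and 0.05 in stomach (SD 0.18 between 3 probes) and was in neither lung list. Its liver probes disagreed, at 0.61, 0.38 and -0.10, and 1 of them was in the authors' deposited table, at a log2 ratio of 0.71.

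Tgtp1, a GTPase first found in T cells, stood at 0.26 in liver (SD 0.16 between 2 probes) and at 0.24 in stomach (SD 0.43). One of its probes is in the authors' deposited table for lung, with 3880 in Cy3 and 1030 in Cy5, a ratio of -1.92. In stomach its spread between probes was larger than its ratio. Ifi47, a further member of the family, had signals of 299 and 414 in liver (0.47, scanner error 0.22) and 210 and 356 in stomach (0.76, scanner error 0.27), and was in neither lung list.

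Among the guanylate-binding proteins, Gbp2 had stomach signals of 491 in Cy3 and 1048 in Cy5, a ratio of 1.09 (scanner error 0.20) or 2.13-fold. Its liver signals were 568 and 617, a ratio of 0.12 (scanner error 0.18), which is within the measurement error. Gbp2 was in neither lung list. Gbp3 had stomach signals of 281 and 441 (0.65, scanner error 0.23), and liver signals of 148 and 183 (0.31, scanner error 0.45). For lung the authors' deposited table lists Gbp3 at 5500 in Cy3 and 878 in Cy5, which is -2.65 or 6.27-fold, the lowest ratio among listed members of the group.

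Gbp4 was dim on both arrays, at 0.12 in liver (scanner error 1.65) and 0.11 in stomach (scanner error 1.97), so neither side of 0 can be read, and median centring without loess turned both to -0.08 and -0.21. The authors' deposited table lists it in lung at 906 and 146, a ratio of -2.64. Gbp2b was the 1 GTPase member below 0 in stomach, at -0.30 with a scanner error of 0.94, and stood at 0.06 in liver with a scanner error of 0.91. It was in neither lung list. The scanner ratio, set against its own error, put 6 of the 12 GTPase probes in liver at least 2 errors above 0 (background 2.16% of all probes). In stomach 5 of 12 were that far above 0 (background 5.65%). None was as far below in either organ (background 2.05% and 4.39%).

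Irf1, the factor that interferon gamma induces and that drives many GTPase genes, and Irf8, a factor of myeloid cells, lay on the same sides of 0 as most of the GTPase group. Irf1 was at 0.14 in liver (SD 0.21 between 2 probes) and 0.47 in stomach (SD 0.33), with stomach signals of 269 and 373. Irf8 was at 0.26 (SD 0.18 between 2 probes) in liver and 0.39 (SD 0.16) in stomach. Both kept the Cy5 side under all 7 settings. In the authors' deposited table for lung Irf1 stands at 41800 in Cy3 and 12700 in Cy5, a ratio of -1.71, and Irf8 at -2.07 and -1.23 on its 2 probes.

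**Figure D2:**
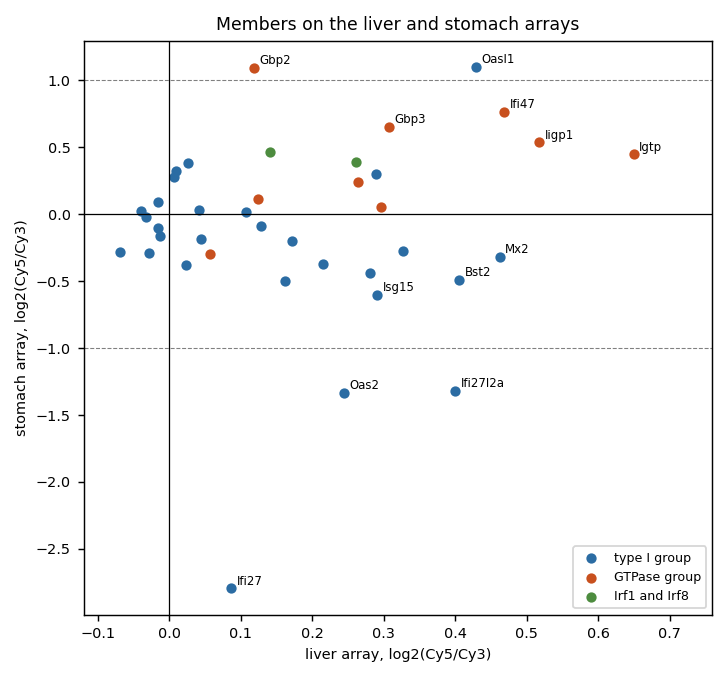
Each point is a gene measured on both arrays, with the log2(Cy5/Cy3) of the liver array on x and of the stomach array on y; colours give the groups and dashed lines 2-fold in stomach. Type I genes spread from -2.80 to 1.10 in stomach and from -0.07 to 0.46 in liver, and the GTPase genes lie in the upper right apart from Gbp2b.

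The type I group had small ratios on the liver array, most of them on the Cy5 side. Of its 28 genes measured there 21 were above 0 (52.9% of all genes). The median was 0.10 (range -0.07 to 0.46), against 0.01 over all genes. None passed 1.5-fold in either channel, but some genes did under 5 of the 6 other settings. By the scanner ratio these were Ifi44 (0.92), Ifit2 (0.78), Oasl1 (0.71), Oasl2 (0.66) and Mx2 (0.61), all Cy5-high. Examples elsewhere were Oasl1 (0.77) with an offset of 10 and Bst2 (0.78) with median centring. Oas2 (0.71) passed with the filter in both channels or the brightest probe. Across the 7 settings 19 to 24 type I genes were above 0 in liver, with medians from 0.09 to 0.14. On the stomach array the type I group lay to the Cy3 side: 20 of 29 genes were below 0 and 9 above (50.2% of all genes were above 0). The median was -0.18, against 0.00 over all genes. Across the 7 settings 17 to 21 were below 0 with medians from -0.32 to -0.12. There 3 genes were at least 2-fold Cy3-high (background 1.42%), Ifi27, Ifi27l2a and Oas2, and 1, Oasl1, was Cy5-high (background 0.875%). With median centring in place of loess this split was 1 Cy3-high and 2 Cy5-high, since Ifi27l2a and Oas2 came to -0.83 and -0.94 and Ifitm3 just passed 2-fold. With no filter on background Oas2 was at -0.76, and with the brightest probe Ifi27l2a was at -0.72, which left 2 Cy3-high genes in each case. At 1.5-fold 4 were Cy3-high (background 3.3%), the added gene being Isg15. Isg15 came to -0.43 with median centring, -0.94 by the scanner ratio and -0.80 with an offset of 10. By the scanner ratio Usp18 (-0.78), Ifi44 (-0.75) and Mx2 (-0.70) also passed 1.5-fold on the Cy3 side, and Ifih1 (0.59) on the Cy5 side. With the scanner ratio set against its own error, 9 of the 46 type I probes were at least 2 errors below 0 in stomach (background 4.39%). On the same measure 4 were as far above (background 5.65%), against none below and 4 above in liver (background 2.05% and 2.16%).

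Ifi27 (listed as D12Ertd647e), a small mitochondrial protein induced by interferon alpha, had stomach signals of 10308 in Cy3 and 1485 in Cy5, a ratio of -2.80 (scanner error 0.27, 1 probe) or 6.94-fold, which median centring brought to -1.92. Its liver signals were 5910 and 6277, a ratio of 0.09 (scanner error 0.16). The stomach ratio is far beyond the measurement error and the liver ratio is not. The authors' deposited table lists it in lung at 35300 in Cy3 and 16400 in Cy5, a ratio of -1.11.

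Ifi27l2a, its neighbour on chromosome 12, had stomach signals of 736 and 294, a mean ratio of -1.32 (SD 0.52 between 3 probes, at -1.63, -1.61 and -0.72). In liver it lay on the other side, at 0.40 (SD 0.03 between 3 probes). In lung the 3 probes stand in the authors' deposited table at -4.45, -3.75 and -1.03. All 3 probes were Cy3-high in both stomach and lung, and they disagree on the size; the probe at -4.45 lies at 100951375 to 100951434 in the files' coordinates (build not given in the sources used here), apart from the other probes and near the sister gene Ifi27l2b, so its gene is uncertain.

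The 2',5'-oligoadenylate synthetases, which make a messenger molecule when they meet double-stranded RNA, divided. Oas2 had stomach signals of 495 and 197, a ratio of -1.33 (scanner error 0.26) on the 1 of its 2 probes that was well above background, and 0.24 in liver (SD 0.65 between 2 probes), where the scanner ratio gave -0.11. Oasl1, a synthetase-like protein without that enzyme activity that holds back translation of Irf7, was the most Cy5-high type I member in stomach and lung: stomach signals of 516 and 1107 gave 1.10 (scanner error 0.19; 1.69 with median centring) or 2.14-fold, and liver signals of 81.8 and 110 gave 0.43, within a scanner error of 1.03. For lung the authors' deposited table lists Oasl1 at 620 in Cy3 and 7800 in Cy5, a ratio of 3.65 or 12.6-fold. Oas1b was at -0.01 in liver and -0.16 in stomach, within scanner errors of 1.74 and 0.69, and stands in lung at 330 and 733 in the authors' deposited table, a ratio of 1.15. Oasl2 was at 0.28 in liver (scanner error 1.26) and -0.44 in stomach (scanner error 0.20), where the authors' deposited table has it Cy3-high at -0.53. In stomach Oas1a, Oas1g and Oas3 ran from -0.20 to 0.09. RefSeq annotates Oas1b, and also Mx1 and Mx2, as transcribed pseudogenes in the reference strain.

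The Ifit genes, whose proteins bind foreign RNA and which lie together on chromosome 19, had ratios within their measurement error in liver and stomach, and all 3 were Cy3-high in lung. Ifit1 was at -0.07 in liver and -0.28 in stomach, within scanner errors of 0.997 and 0.43. Ifit3 was at -0.03 (SD 0.26 between 2 probes) and -0.02 (SD 0.19). Ifit2 was not well above background in Cy3 of the liver array, and stood at -0.10 in stomach with a scanner error of 2.76. In lung the authors' deposited table gives -1.10 for Ifit1, -2.32 for Ifit2, and -2.16 and -1.92 for the 2 probes of Ifit3.

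Ifi44, a cytoplasmic protein of the antiviral set, was at 0.22 in liver (SD 0.16 between 2 probes; 0.92 by the scanner ratio) and -0.37 in stomach (SD 0.53). Ifitm3, a membrane protein that blocks virus entry, was at 0.01 in liver (scanner error 0.16) and 0.28 in stomach (scanner error 0.17), where median centring put it just past 2-fold on the Cy5 side. Bst2, or tetherin, which holds budding viruses on the cell surface, was at 0.41 in liver (signals 2112 and 2799, scanner error 0.17) and -0.49 in stomach (697 and 497, scanner error 0.19), but median centring turned its stomach value to 0.05. In lung these 3 genes were Cy3-high, and the authors' deposited table gives -1.78 for Ifi44, -1.60 for Ifitm3 and -1.55 for Bst2.

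Isg15, a ubiquitin-like protein joined to other proteins, was at 0.29 in liver (scanner error 0.87) and -0.60 in stomach (signals 203 and 134, scanner error 0.42) and was in neither lung list. The file places its probe on chromosome 17 while RefSeq has the gene on chromosome 4, so the probe is uncertain. Isg20, an RNA exonuclease, was at 0.01 in liver (SD 0.19 between 2 probes) and 0.32 in stomach (SD 0.26), and its 2 probes stand at 1.16 and 1.05 in the authors' deposited table for lung. Rsad2, or viperin, was at -0.04 (SD 0.12 between 3 probes) in liver and 0.02 (SD 0.13) in stomach, and 1 of its probes is in the authors' deposited table for lung, at -1.04.

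Among sensors and factors, Ddx58, which encodes the RNA sensor RIG-I, was at -0.03 in liver (SD 0.14 between the 3 probes measured) and -0.29 in stomach (SD 0.29 between 2). Stat2, a part of the type I complex, was at 0.33 in liver (scanner error 0.26) and -0.27 in stomach (scanner error 0.26), where median centring turned it to 0.09. Irf7, which amplifies type I interferon production, was at 0.02 in liver (scanner error 0.61) and -0.38 in stomach (scanner error 0.46). By the scanner ratio Irf7 was at -0.56 in stomach, beyond that error. In lung Irf7 was on the opposite side from the other 2: the authors' deposited table gives Irf7 at 393 in Cy3 and 1570 in Cy5, a ratio of 1.99, against -1.33 for Stat2 and -2.27 and -1.29 on the 2 listed probes of Ddx58.

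The 14 members not listed in lung and below 1.5-fold on both arrays, among them Oasl2, Irgm1 and Gbp2b above, ran from -0.02 (Oas3) to 0.46 (Mx2) in liver and from -0.50 (Usp18) to 0.38 (Ifitm1) in stomach. Of these, 12 of 13 measured were above 0 in liver (52.9% of all genes) and 6 of 14 in stomach (50.2% of all genes). The other members of this kind were Ifi35, Ifih1, Oas1a, Oas1g, Mx1, Irf9 and Dhx58. Oas1g was not measured on the liver array and not well above background in Cy3 of the stomach array. Scanner errors of type I probes had a median of 0.64 in liver and 0.53 in stomach, against 0.21 and 0.25 for the GTPase probes, so small ratios of the type I group are less precise.

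**Figure D3:**
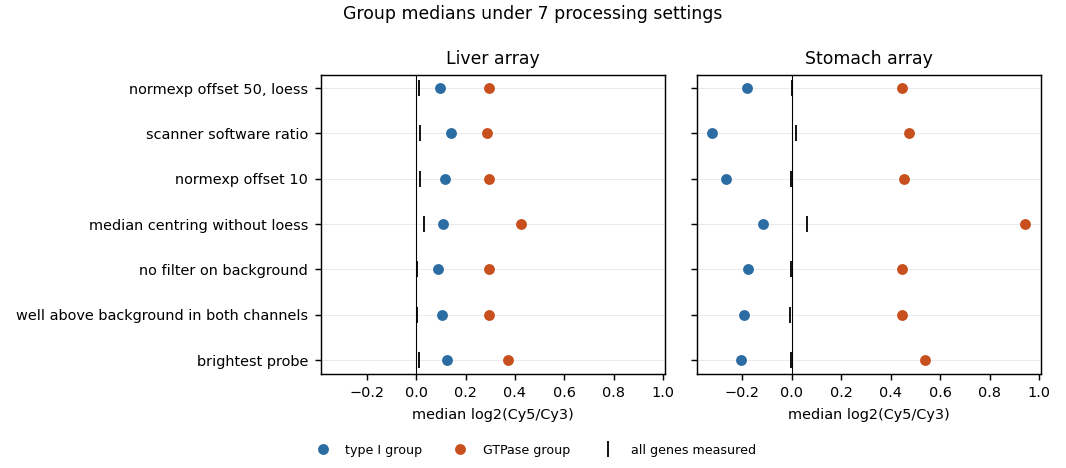
Median log2(Cy5/Cy3) of the type I group and the GTPase group, with that of all measured genes as a black tick, for liver and stomach under the 7 processing settings. In stomach the type I median stays between -0.32 and -0.12 and the GTPase median between 0.45 and 0.94 in all 7.

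The authors' own lists for liver and stomach held only spots with a scanner p-value of at most 0.01, which covers the error of 1 spot. Liver held 3 of the 40 members, all Cy5-high and all GTPases: Igtp, Iigp1 and Irgm1 (background 1.76%). No member was in the Cy3-high list of liver (background 1.37%). The authors' deposited table for stomach held 6 Cy5-high members (background 5.18%): Gbp2, Gbp3, Iigp1, Ifi47, Oasl1 and Irf1. Another 5 were Cy3-high there (background 4.33%), all of the type I group: Ifi27, Ifi27l2a, Oas2, Oasl2 and Bst2. No GTPase was in the Cy3-high list of stomach.

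In lung 18 of the 40 members were in the authors' Cy3-high list (background 12.4%) and 4 in the Cy5-high list (background 6.85%), and 18 were in neither. The Cy3-high members were 11 of 29 type I genes, 5 of 9 GTPases and both factors. The Cy5-high members, Oasl1, Irf7, Oas1b and Isg20, were all of the type I group, and no GTPase was Cy5-high. Over the Cy3-high members the median ratio in the authors' deposited table was -1.60 for the type I group and -1.95 for the GTPase group, which includes no gene below the 2-fold limit of the lists. Of these 18 members, 13 were above 0 in liver (52.9% of all genes) and 9 in stomach (50.2% of all genes). The 9 in stomach were 5 of the 5 GTPases, both factors and 2 of the 11 type I genes.

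**Figure D4:**
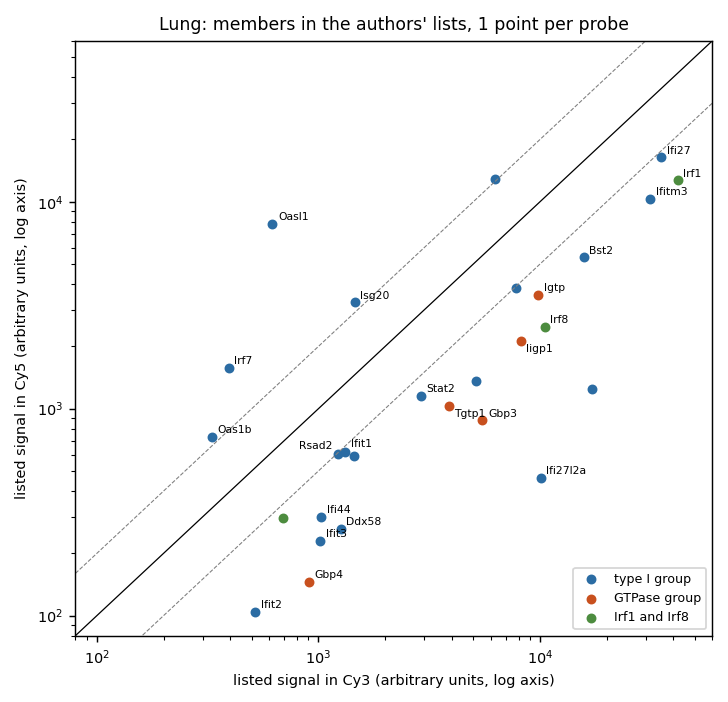
Each point is a probe of a member in the authors' lung lists, with its listed Cy3 signal on x and its Cy5 signal on y, both on log axes; the solid line marks equal signals and the dashed lines 2-fold, and the label of a gene stands at its most extreme probe. The 5 probes above the upper dashed line belong to Oasl1, Irf7, Oas1b and Isg20, and the 23 below the lower line include 5 GTPase probes.

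Other genes of the pathway were taken from lists by role. Of 13 ligands none was 2-fold apart in liver or stomach. Il18, a cytokine that raises interferon gamma output, was at 0.17 in liver and 0.73 in stomach, and is Cy5-high at 1.47 in the authors' deposited table for lung. The 13 receptor and signalling genes had medians of 0.09 in liver and 0.14 in stomach, with none at 2-fold. In lung Ifnar2, a chain of the type I receptor (-1.54), and the factors Irf3 (-1.57) and Irf5 (-1.70) were Cy3-high in the authors' deposited table. Ifngr1, a chain of the interferon gamma receptor, was Cy5-high there at 1.48 in the authors' deposited table.

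Of 12 sensors and adaptors none was 2-fold apart on either array, and Zbp1, a sensor of nucleic acids that triggers cell death, was the highest in liver at 0.86, with 0.63 in stomach. The authors' deposited table has Zbp1 (-1.61), the DNA-sensing adaptor Sting1 (-1.38) and the RNA sensor Tlr7 (-1.31) Cy3-high in lung, and the kinase Ikbke Cy5-high (1.38). Of 7 inhibitors none was 2-fold apart on the arrays, and in lung the authors' deposited table has the phosphatase Ptpn6 at -1.12 and Trim27 at 3.79.

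Of 29 other induced genes 22 were above 0 in liver (background 52.9%) and 21 in stomach (background 50.2%), with medians of 0.12 and 0.10. In lung 10 were Cy3-high in the authors' deposited table (background 12.4%). The authors' deposited table puts the DNA-binding Ifi203, Ifi204 and Ifi205 at -2.46, -1.32 and -2.72. The nuclear body proteins Sp100 and Sp110 stand at -1.85 and -2.60 in the authors' deposited table. Samhd1, an enzyme that breaks down nucleotides, stands at -2.51, Cmpk2, a nucleotide kinase, at -1.74, and Parp14 at -1.46 in the same authors' deposited table. The ligase genes Trim21 and Trim30a stand at -1.03 and -2.02 there, in the authors' deposited table. Lgals9 and Lgals3bp, a galectin and a galectin-binding protein, were Cy5-high in lung, at 2.10 and 1.90 in the authors' deposited table.

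Genes that interferon gamma induces formed a list of their own. Of 25 genes on the design, 17 were above 0 in liver (background 52.9%), and 19 of 24 measured in stomach (background 50.2%). In stomach 4 were at least 2-fold Cy5-high (background 0.875%): Ido1, which breaks down tryptophan, at 2.07, Cd74, the chaperone of MHC class II, at 1.07, the factor Batf2 at 1.03 and the chemokine Cxcl9 at 1.01. In lung none was Cy5-high and 15 were Cy3-high (background 12.4%). Psmb8, Psmb9 and Psmb10, subunits of the immunoproteasome, were at 0.49, 0.57 and 0.47 in liver and 0.79, 0.51 and 0.73 in stomach, and the authors' deposited table puts them at -1.41, -1.68 and -1.54 in lung. Cxcl10, which draws T cells, was at 0.54, 0.98 and, in the authors' deposited table for lung, -1.77.

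Class I genes were near 0 on the arrays apart from B2m in liver (0.40), and stand in lung at -2.24 for B2m, -1.43 for H2-K1 and -1.14 for H2-D1 in the authors' deposited table. Tap1, the peptide transporter, Ciita, the regulator of class II genes, and Cd74 stand at -1.31, -2.60 and -2.54 there, in the authors' deposited table. The authors' deposited table also has the GTPases Irgm2 (-1.46) and Gbp7 (-1.91), the adhesion molecule Icam1 (-3.18), the checkpoint ligand Cd274 (-1.80) and the complement inhibitor Serping1 (-1.74) Cy3-high in lung. Irgm2 was at 0.63 in liver and 0.45 in stomach, and Gbp7 at 0.24 and 0.23.

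**Figure D5:**
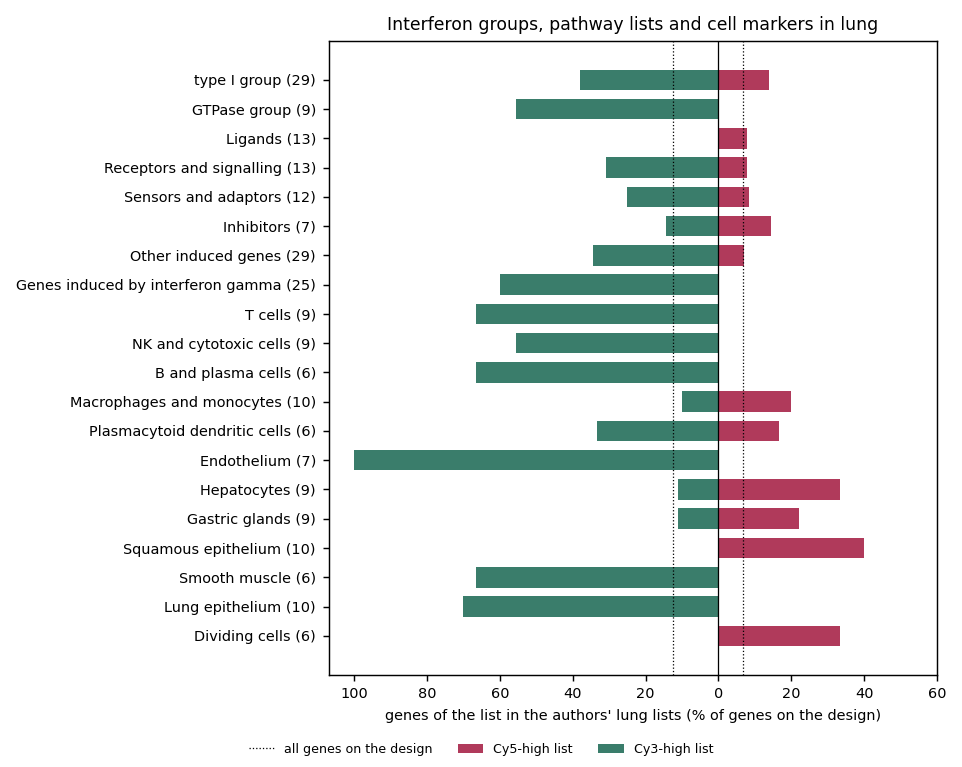
Share of the genes of each list on the design (their number in brackets) in the authors' lung lists, Cy3-high to the left and Cy5-high to the right; dotted lines mark the shares over all genes, 12.4% and 6.85%. The GTPase group (5 of 9) and the genes induced by interferon gamma (15 of 25) have only Cy3-high bars, as do, among others, T cells (6 of 9) and endothelium (7 of 7).

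Markers of cell types moved in the same lists. In lung, the authors' deposited table had 6 of 9 T cell genes Cy3-high (background 12.4%). Their signals in the authors' deposited table sum to 10215 in Cy3 and 2475 in Cy5. The lung sums of T, NK, B and endothelial genes hold listed genes alone, all of them Cy3-high. The 2-fold limit of the lists therefore fixes the direction of these sums, and they add nothing to the counts. The authors' deposited table also had 5 of 9 NK and cytotoxic genes Cy3-high (15372 and 3270). B and plasma cell genes were Cy3-high for 4 of 6 (94065 and 13566.5) and endothelial genes for 7 of 7 (130355 and 23790) in the authors' deposited table. Markers of lung epithelium were Cy3-high for 7 of 10 genes and of smooth muscle for 4 of 6 in the authors' deposited table. Of 10 macrophage and monocyte genes 1, Lyz2, was Cy3-high and 2, Cd14 and Ly6c1, were Cy5-high (background 6.85%) in the authors' deposited table. The others, among them Adgre1, Csf1r and Cd68, were in neither lung list. In stomach, T cell markers summed to 1218 in Cy3 and 1277 in Cy5 (7 of 9 above 0) and NK and cytotoxic markers to 914 and 1085 (7 of 8 above 0). Also in stomach, 6 of 9 gastric gland genes and 7 of 10 squamous genes were at least 2-fold Cy3-high (background 1.42%). The same held for 4 of 6 smooth muscle genes. Of 6 dividing cell genes 3 were at least 2-fold Cy5-high in stomach (background 0.875%). In liver the T cell sums were 1465 and 1467 (5 of 9 above 0). The NK and cytotoxic sums in liver were 920 and 919 (4 of 8 above 0). Of all genes measured, 50.2% were above 0 in stomach and 52.9% in liver. Ncr1, a defining NK gene, was not well above background on either array. The part of these cells in the ratios of the interferon genes was not tested.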

How the data were processed

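RNA of 3 tissue pairs was measured on 2-colour Agilent mouse arrays, 1 per organ. Total RNA (500 ng per labelling) was amplified by a linear method, per the labels' protocols, and Agilent Feature Extraction 8.5.1.1 read the scans, per the file headers. In the scanner files the authors' deposited intensities are each spot's mean signal and local background in both channels, per the file headers. Their deposited log10 ratio is red over green after the scanner software's own dye correction, and the deposited p-value tests 1 spot's ratio under its error model, per the file headers. The authors' deposited table stacks an up list and a down list per organ of log10 ratios, here turned to log2, which for liver and stomach equal the scanner ratio of the same spot; its signals are the scanner software's processed signals. Lung spots were named through the spot number on the same design. Lung brightness correlated with liver brightness over the 2288 spots of the Cy5-high list (Pearson r = 0.58, a description). The correlation was not computed for the Cy3-high list. In the lung down list the signal columns change order, and reading each order as found gave the listed ratio within 0.02 on the log10 scale at all 4064 spots.

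Signals were corrected with normexp (offset 50) and loess (limma 3.58.1, R 4.3.3), giving control spots no weight; the steps were tested on simulated data. Printed normalized signals include the offset, which shrinks the ratios of dim genes. For these printed signals, average spot brightness was also brought to a shared distribution over the liver and stomach arrays (Aquantile). Ratios were left unchanged by that step. Control spots and spots with outlier flags were dropped. A probe counted as measured when either channel was well above background and not both were saturated, and a gene's value is the mean over its measured probes. Negative control spots had a median raw Cy3 signal of 127 in liver and 119 in stomach, against 180 and 171 over gene spots. With 1 array per organ, counts past 2-fold or 1.5-fold and medians are given beside those of all genes, with no test. Later steps used Python 3.11.15 with pandas 2.3.3, numpy 2.4.6 and scipy 1.17.1, and figures matplotlib 3.10.9. Of 41174 probes, 23082 were named by accession through RefSeq and 8374 kept the name on the array.

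The members and lists were chosen with earlier results of these data known, so no pattern here is independent support. Members at least 1.5-fold apart in liver or stomach, or listed in lung, are described one by one (26 genes), and the others by range. Oasl2, Irgm1 and Gbp2b fall outside that rule and were named after their values were seen. Alternatives were the scanner ratio, an offset of 10, median centring without loess, no filter on background, a filter in both channels, the brightest probe, a 1.5-fold size, counts of probes and, for lung, a 4-fold minimum. The lung scanner values were not analysed here, and results for some genes of the pathway lists are not reported here.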

Additional observations from a re-analysis of the deposited data

Results flagged for a closer look

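In the authors' deposited table, 4 members stand in lists of opposite channels in lung and in another organ, which is what singled them out; with 1 array per organ the difference was not tested. Lung minus stomach was -3.51 on the log2 scale for Gbp3 (0.86 in stomach, -2.65 in lung), -2.56 for Iigp1 (0.60 and -1.95) and -2.44 for Irf1 (0.73 and -1.71) in the authors' deposited table. Lung minus liver was -2.15 for Igtp (0.68 in liver, -1.47 in lung) and -2.48 for Iigp1 (0.53 and -1.95) in the same authors' deposited table. All 5 differences run from the Cy5 side in liver or stomach to the Cy3 side in lung, and the lung pair differs from the others in that its normal tissue came from a Wt mouse.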

How the results depend on the processing

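The medians of the type I and the GTPase group kept their direction in liver and stomach under all 6 other settings. The median of all 40 members in stomach did not: it was -0.06 and came to 0.04 with median centring without loess. Median centring without loess moved the stomach GTPase median from 0.45 to 0.94 and its 2-fold Cy5-high count from 1 to 3, and the stomach type I counts from 1 to 2 Cy5-high and from 3 to 1 Cy3-high, so that their balance turned. With no filter on background, and with the brightest probe, 2 were Cy3-high. The scanner ratio gave 2 Cy5-high GTPases in stomach. At 1.5-fold, liver had 1 and stomach 3 Cy5-high GTPases. At a 4-fold minimum the lung lists kept 1 of 4 Cy5-high and 4 of 11 Cy3-high type I genes and 2 of 5 GTPases. The share of all genes kept at 4-fold is not given here, so these counts have no background. Counts over all genes depend more on the processing: the scanner ratio gave 537 Cy5-high and 420 Cy3-high genes in liver against 39 and 18, and 1090 and 1049 in stomach against 221 and 359. Median centring gave 110 and 7 in liver and 1012 and 235 in stomach, and an offset of 10 gave 113 and 104 in liver and 441 and 589 in stomach. The cause was not tested. Single members moved by more than the spread between probes most often under median centring, 12 of 26 values in liver and 15 of 26 in stomach. No paired analysis was possible because each organ had 1 array. Signal over background limits the type I ratios, whose probes had a median scanner error of 0.64 in liver and 0.53 in stomach.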
